A study of Mus musculus with 12 samples.

Results

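The 5 genes described here encode the GADD45 proteins (*Gadd45a*, *Gadd45b* and *Gadd45g*) and the stress-responsive polo-like kinases (*Plk2* and *Plk3*). They were taken by symbol from the gene tables of a mouse kidney RNA-Seq experiment, and all 5 were found once among 55401 gene identifiers. The experiment compared male C57BL6 mice, 8 weeks old, that received SK-124 at 40 mg/kg or its vehicle alone as 1 intraperitoneal injection. The vehicle was a 15% solution of 2-hydroxypropyl-beta-cyclodextrin. There were 6 mice in each group, with 1 whole-kidney library per mouse, and the labels name no engineered allele. SK-124 is an inhibitor of SIK2 and SIK3, which belong to the salt-inducible kinases (SIKs). The time from injection to collection of these kidneys is not stated separately in the sources used here.

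GADD45 proteins are small proteins without enzymatic activity that work by binding partners. They activate the MAP kinase kinase kinase encoded by *Map3k4*, upstream of p38 and JNK, they bind PCNA, p21 and the CDK1/cyclin B complex, and they have been linked to DNA repair and to active DNA demethylation. Their mRNAs are scarce in resting cells and rise quickly under stress, and renal medullary cells raise them when the surrounding salt concentration increases. PLK2 and PLK3 are serine/threonine kinases of the polo-like family, which is best known for PLK1 and mitosis, but both are also made as immediate-early products in non-dividing cells. SIKs hold the CRTC coactivators of the transcription factor CREB in the cytoplasm, and parathyroid hormone lowers SIK activity in the kidney. The comparison with vehicle asks which of these stress genes change in kidney when SIK2 and SIK3 are inhibited.

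The sequences just upstream of the genes are shown first because the letters to which CREB is known to bind, the cAMP response element (CRE), lie in only some of them. They are from RefSeq (GRCm38.p6), which held all 5 genes, on the strand of each gene, 5′ to 3′, and 250 bases long, or less where the GENCODE M21 annotation starts the gene earlier. Capitals mark the letters that were searched on both strands, namely the CRE (TGACGTCA), the partial CRE (TGACG), the C/EBP-ATF composite site (TTGCATCA), the E-box (CACGTG), the TATA box (TATAAA) and the CCAAT box (CCAAT).
Gadd45a: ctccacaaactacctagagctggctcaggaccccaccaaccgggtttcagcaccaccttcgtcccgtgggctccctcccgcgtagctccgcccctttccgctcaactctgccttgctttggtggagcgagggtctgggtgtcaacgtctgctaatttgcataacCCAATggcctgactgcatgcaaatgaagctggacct
Gadd45b: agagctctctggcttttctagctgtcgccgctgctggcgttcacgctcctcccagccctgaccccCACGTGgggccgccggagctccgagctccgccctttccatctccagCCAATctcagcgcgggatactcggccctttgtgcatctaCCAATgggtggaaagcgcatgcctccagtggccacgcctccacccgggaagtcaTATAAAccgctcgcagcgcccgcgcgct
Gadd45g: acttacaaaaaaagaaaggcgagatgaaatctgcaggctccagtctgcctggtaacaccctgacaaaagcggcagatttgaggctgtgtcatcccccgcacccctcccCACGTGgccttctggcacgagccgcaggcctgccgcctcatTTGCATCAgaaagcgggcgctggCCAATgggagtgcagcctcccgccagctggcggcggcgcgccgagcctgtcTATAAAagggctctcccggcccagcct
Plk2: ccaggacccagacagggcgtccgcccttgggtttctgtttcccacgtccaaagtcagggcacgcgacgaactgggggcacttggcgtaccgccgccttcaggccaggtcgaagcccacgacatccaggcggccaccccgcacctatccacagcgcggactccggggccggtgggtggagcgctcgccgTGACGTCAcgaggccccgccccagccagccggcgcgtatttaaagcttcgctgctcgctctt
Plk3: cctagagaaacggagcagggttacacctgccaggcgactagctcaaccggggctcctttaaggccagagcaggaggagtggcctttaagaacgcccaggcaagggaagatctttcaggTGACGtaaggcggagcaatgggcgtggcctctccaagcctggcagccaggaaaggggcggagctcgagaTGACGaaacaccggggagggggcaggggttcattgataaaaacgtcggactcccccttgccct
The windows lie at chr6:67037458-67037657 on the minus strand for *Gadd45a*, at chr10:80929841-80930072 on the plus strand for *Gadd45b*, at chr13:51846425-51846674 on the plus strand for *Gadd45g*, at chr13:110394794-110395043 on the plus strand for *Plk2*, and at chr4:117133964-117134213 on the minus strand for *Plk3*.

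Only *Plk2* held the complete CRE among the members, from base -62 to -55 counted from the RefSeq start, where base -1 is the last before the start. The complete CRE occurs in 1.79% of 32817 RefSeq windows of 300 bases, each 250 before and 50 after a start. *Plk3* held 2 partial CREs, from -132 to -128 and from -63 to -59, and the partial CRE, which the complete CRE contains on both strands, occurs in 20.8% of windows. *Gadd45g* held the composite site from -101 to -94 (0.896% of windows). TATAAA occurred at -46 in *Gadd45b* and at -27 in *Gadd45g* (13.6% of windows), and the E-box occurred in the same 2 genes (7.15%). CCAAT was found in all 3 GADD45 genes and in neither kinase gene (37.4%). The AP-1 site (TGACTCA, 5.20% of windows), a FoxO site (GTAAACA, 3.65%) and a glucocorticoid receptor site (AGAACA, 19.0%) were found in none of the 5 windows. These matches describe letters in short windows and show no binding.

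Each vehicle library held between 19350134 and 19771802 expected counts and each SK-124 library between 19244227 and 19530313. The TMM factors by which edgeR adjusts these totals ranged from 0.889 to 1.08. The 10 largest genes took between 39.9% and 43.2% of the counts in vehicle mice, between 44.4% and 46.8% in SK-124 mice 1, 2 and 3, and between 38.6% and 40.2% in SK-124 mice 4, 5 and 6. Values below are TMM-normalized CPM, that is reads scaled to a common library total adjusted in this way for differences in makeup. Fold changes are from edgeR's quasi-likelihood test, with p-values adjusted by the Benjamini-Hochberg method (FDR) over all 14159 genes tested. The 5 proximal tubule markers summed to between 7043 and 7973 CPM in vehicle mice and to between 6514 and 8375 CPM in SK-124 mice, so the defining markers of kidney tissue were present at high levels in both groups.

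Of the 5 genes, 4 rose with SK-124 and *Plk2* did not pass the test, where 10.8% of all genes tested rose, 13.5% fell and 24.4% were called in either direction. The sizes were unequal within both families. *Plk3* rose 8.39-fold and *Gadd45g* 4.18-fold, *Gadd45b* rose 2.51-fold from a low level, and *Gadd45a* rose 1.26-fold. By log2 fold change *Plk3* was 24th, *Gadd45g* 53rd, *Gadd45b* 154th, *Gadd45a* 1197th and *Plk2* 6720th from the top of the genes tested. For *Gadd45b*, *Gadd45g* and *Plk3*, 3 of the 5, every SK-124 mouse was above every vehicle mouse, which held for 6.32% of all genes tested, and none lay wholly below, which held for 6.65%. In whole kidney a change in the RNA of each cell and a change in the number of cells of a type cannot be told apart.

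**Figure D1:**
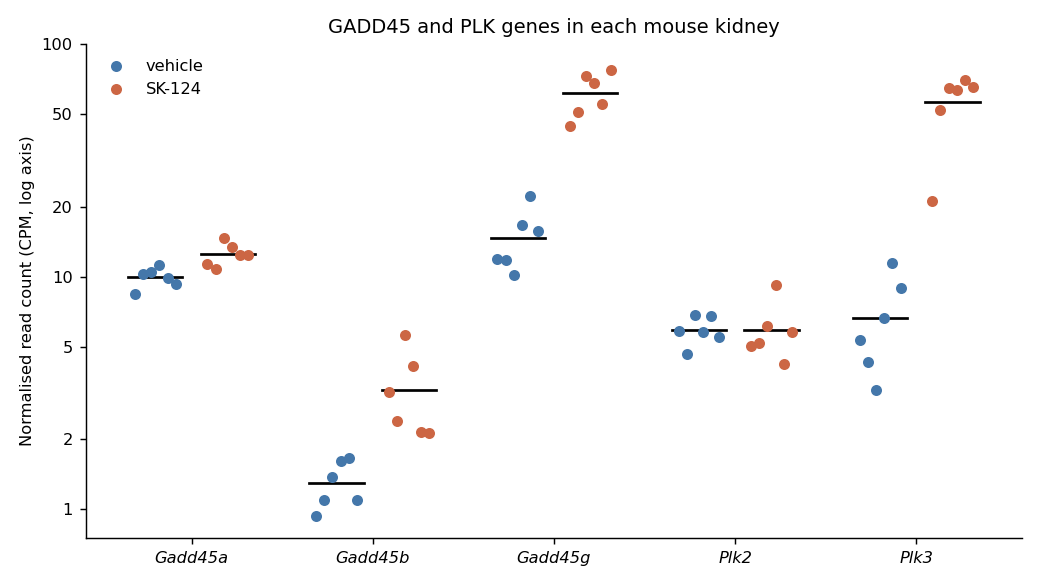
TMM-normalized read counts (CPM, log axis) of the 5 genes in each of 12 mouse kidneys, with 1 point per mouse in order of mouse number, vehicle in blue and SK-124 in orange, and the group mean as a black line. The groups do not overlap for *Gadd45b*, *Gadd45g* and *Plk3*, touch for *Gadd45a* and lie over each other for *Plk2*.

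*Gadd45a* (ENSMUSG00000036390.8) is the founding member of the family and a classical p53 target. It lies at chr6:67035096-67037457 in GENCODE M21 (GRCm38), on the minus strand, with 7 annotated transcripts. Its level ranged from 8.44 to 11.2 CPM in vehicle mice with a median of 10.1, and from 10.8 to 14.7 CPM in SK-124 mice with a median of 12.4. Of the 6 SK-124 mice, 5 were above every vehicle mouse, and only mouse 2, at 10.8 CPM, lay below the highest vehicle mouse. The mean was 9.91 ± 0.960 CPM (SD, n = 6) with vehicle and 12.5 ± 1.39 CPM (SD, n = 6) with SK-124. The log2 fold change was 0.34 (SE 0.084, FDR = 0.0069, edgeR), and exact permutation of the mice (two-sided, on log2(CPM + 0.5)) gave p = 0.00433. Scaling by library totals alone, which moved the median over all genes from -0.01 to -0.12 on the log2 scale, gave a log2 fold change of 0.23 for *Gadd45a* and ended the call (FDR = 0.0947, edgeR). With SK-124 mice 1, 2 and 3 alone the log2 fold change was 0.31 (FDR = 0.0766, edgeR).

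The noncoding gene *E230016M11Rik* overlaps *Gadd45a* on the opposite strand, and the sources used here do not say whether reads were counted by strand. It was at 1.74 CPM in vehicle mice and 1.24 CPM in SK-124 mice, with a log2 fold change of -0.48 that did not pass the test (FDR = 0.117, edgeR). Its level was therefore well below that of *Gadd45a* and its estimate had the opposite sign. RSEM reported an error of 0 for the count of each member in every mouse, meaning that no read was divided between a member and another gene.

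*Gadd45b* (ENSMUSG00000015312.9), known as a target of NF-kB and of TGF-beta signalling, lies at chr10:80930073-80932204 on the plus strand with 3 annotated transcripts and no overlapping gene. It was the scarcest GADD45 gene. Expected counts per mouse were only 19 to 35 with vehicle and 41 to 100 with SK-124. Vehicle mice ranged from 0.938 to 1.66 CPM around a median of 1.23, and SK-124 mice from 2.13 to 5.60 CPM around a median of 2.79. Every SK-124 mouse was above every vehicle mouse. SK-124 mice 3 and 4 were highest, at 5.60 and 4.11 CPM, and mice 5 and 6 were lowest, at 2.15 and 2.13 CPM. Means were 1.30 ± 0.301 CPM with vehicle and 3.26 ± 1.38 CPM with SK-124 (SD, n = 6 each). The log2 fold change was 1.33 (SE 0.247, FDR = 0.000708, edgeR; exact permutation p = 0.00216, the smallest that 6 mice against 6 can give).

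*Gadd45g* (ENSMUSG00000021453.2), first described as a gene induced by cytokines, lies at chr13:51846678-51848468 on the plus strand with 2 annotated transcripts and no overlapping gene. Vehicle mice ranged from 10.1 to 22.1 CPM with a median of 13.9, and SK-124 mice from 44.2 to 77.3 CPM with a median of 61.7. The lowest SK-124 mouse was thus far above the highest vehicle mouse. Within the SK-124 group mice 1 and 2 were lowest, at 44.2 and 51.2 CPM, and mouse 6 was highest, at 77.3 CPM. Means were 14.7 ± 4.40 CPM with vehicle and 61.5 ± 13.2 CPM with SK-124 (SD, n = 6 each). The log2 fold change was 2.06 (SE 0.172, FDR = 1.28e-07, edgeR; exact permutation p = 0.00216).

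*Plk2* (ENSMUSG00000021701.8), also called serum-inducible kinase, lies at chr13:110395046-110400844 on the plus strand with 5 annotated transcripts. Vehicle mice ranged from 4.66 to 6.84 CPM around a median of 5.81, and SK-124 mice from 4.21 to 9.16 CPM around a median of 5.49. The groups overlapped almost wholly. The highest value, 9.16 CPM in SK-124 mouse 4, and the lowest, 4.21 CPM in SK-124 mouse 5, were both in the SK-124 group. Means were 5.90 ± 0.824 CPM with vehicle and 5.91 ± 1.72 CPM with SK-124 (SD, n = 6 each). The log2 fold change was 0.01 (SE 0.156, FDR = 0.979, edgeR; exact permutation p = 0.881). The approximate 95% interval of the fold ran from 0.814 to 1.24, so the data leave room for a modest change in either direction. *Plk2*, which did not pass the test, holds the complete CRE in its upstream window, and *Plk3*, which rose most, holds only partial CREs. Whether these letters bear on the responses was not tested.

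*Plk3* (ENSMUSG00000028680.14), also called FGF-inducible kinase, lies at chr4:117128655-117133963 on the minus strand with 3 annotated transcripts. Vehicle mice ranged from 3.27 to 11.5 CPM around a median of 5.97, and SK-124 mice from 21.2 to 69.7 CPM around a median of 64.0. The groups did not overlap, but neither was tight. SK-124 mouse 1, at 21.2 CPM, stood apart from the other 5, which lay between 51.9 and 69.7 CPM. Among vehicle mice, mouse 5 was highest, at 11.5 CPM, and mouse 3 lowest, at 3.27 CPM. Means were 6.66 ± 3.08 CPM with vehicle and 56.1 ± 18.1 CPM with SK-124 (SD, n = 6 each). The log2 fold change was 3.07 (SE 0.286, FDR = 4.85e-07, edgeR; exact permutation p = 0.00216). The gene *Tctex1d4*, which overlaps *Plk3* on the opposite strand, averaged 0.0164 CPM with vehicle and 0.0182 CPM with SK-124, close to no reads, and was not tested.

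**Figure D2:**
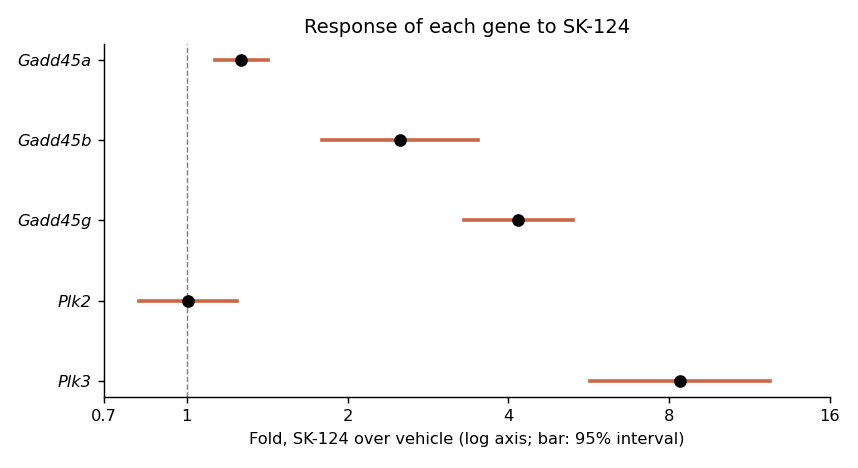
Fold of SK-124 over vehicle (log axis) for the 5 genes, with the edgeR estimate as a black point, an approximate 95% interval as an orange bar, and a dashed line at 1. The interval of *Plk2* (0.814 to 1.24) includes 1, and those of the other 4 lie above 1, from 1.13 to 1.42 for *Gadd45a* up to 5.69 to 12.4 for *Plk3*.

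Whether members of 1 family differed in their response was then tested directly. For each pair of genes the difference of their log2(CPM + 0.5) within each mouse was compared between the groups by a two-sided exact permutation test, and p-values were adjusted over the 10 pairs. The scaling of libraries cancels in this difference apart from the pseudocount, which is not small beside *Gadd45b*. The change of *Gadd45b* was 1.01 on this scale against 1.33 in the edgeR fit, so its differences below do not equal those between the fitted folds. With pseudocounts of 0.1 and 1 *Gadd45a* minus *Gadd45b* was -0.87 and -0.54, and *Gadd45b* minus *Gadd45g* was -0.87 and -1.16, and both passed the test each time. *Plk3* responded more than *Plk2* by 3.02 on the log2 scale (95% interval 2.20 to 3.84, adjusted exact permutation p = 0.00361). *Gadd45g* responded more than *Gadd45a* by 1.73 (1.30 to 2.15, adjusted exact permutation p = 0.00361) and more than *Gadd45b* by 1.03 (0.49 to 1.58, adjusted exact permutation p = 0.00361). *Gadd45b* in turn responded more than *Gadd45a* by 0.69 (0.30 to 1.09, adjusted exact permutation p = 0.00722). By these differences the GADD45 genes were ordered *Gadd45g*, *Gadd45b*, *Gadd45a* in response, and each step passed the permutation test. The step from *Gadd45b* to *Gadd45a* did not pass in a sign-flip test over same-numbered mice (adjusted exact sign-flip p = 0.0694). That test has little room, since same-numbered mice are different animals and its p before adjustment cannot go below 0.0312.

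Between the families, *Plk3* exceeded *Gadd45g* by 0.95 (0.47 to 1.43, adjusted exact permutation p = 0.00722), *Gadd45b* by 1.98 (1.07 to 2.90, adjusted exact permutation p = 0.00618) and *Gadd45a* by 2.68 (1.88 to 3.47, adjusted exact permutation p = 0.00361). *Plk2* responded less than *Gadd45g* and *Gadd45b*, by 2.07 and 1.04 (adjusted exact permutation p = 0.00361 for both). The difference between *Gadd45a* and *Plk2*, 0.34, did not pass the threshold (-0.01 to 0.69, adjusted exact permutation p = 0.0584), so these 2 responses were not distinguished.

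Levels of different genes were compared on the TPM scale, which is per length of transcript. With vehicle the order of the mean levels was *Gadd45g* (15.8 TPM), *Gadd45a* (9.64), *Plk3* (2.89), *Plk2* (2.35) and *Gadd45b* (1.25). Each neighbour in this order was higher in 6 of 6 mice, other than *Plk3* over *Plk2*, which held in 4 of 6 and so was not a difference beyond the spread. With SK-124 the order was *Gadd45g* (60.0 TPM), *Plk3* (21.9), *Gadd45a* (11.0), *Gadd45b* (2.80) and *Plk2* (2.07). It held in 6 of 6 mice for each neighbour other than *Plk3* over *Gadd45a*, which held in 5 of 6. *Plk3* thus moved from below *Gadd45a* in every vehicle mouse to above it in 5 SK-124 mice, and *Plk2* moved from above *Gadd45b* in every vehicle mouse to below it in every SK-124 mouse.

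The summed level of the 3 GADD45 genes was 26.7 ± 5.85 TPM (SD, n = 6) with vehicle and 73.8 ± 18.3 TPM (SD, n = 6) with SK-124, and the ranges, 20.9 to 36.6 and 50.6 to 96.1 TPM, did not overlap. Its makeup shifted as well. *Gadd45g* made up 58.1 ± 7.43% of the sum with vehicle and 80.9 ± 2.85% with SK-124, while *Gadd45a* made up 37.2 ± 7.14% and 15.2 ± 2.02%. *Gadd45b* stayed a small share, at 4.72 ± 0.752% and 3.92 ± 1.23%. Of the summed level of *Plk2* and *Plk3*, *Plk3* made up 52.8 ± 12.1% with vehicle and 90.0 ± 5.42% with SK-124, when the sum was 5.24 ± 1.75 and 23.9 ± 8.46 TPM (SD, n = 6 each).

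**Figure D3:**
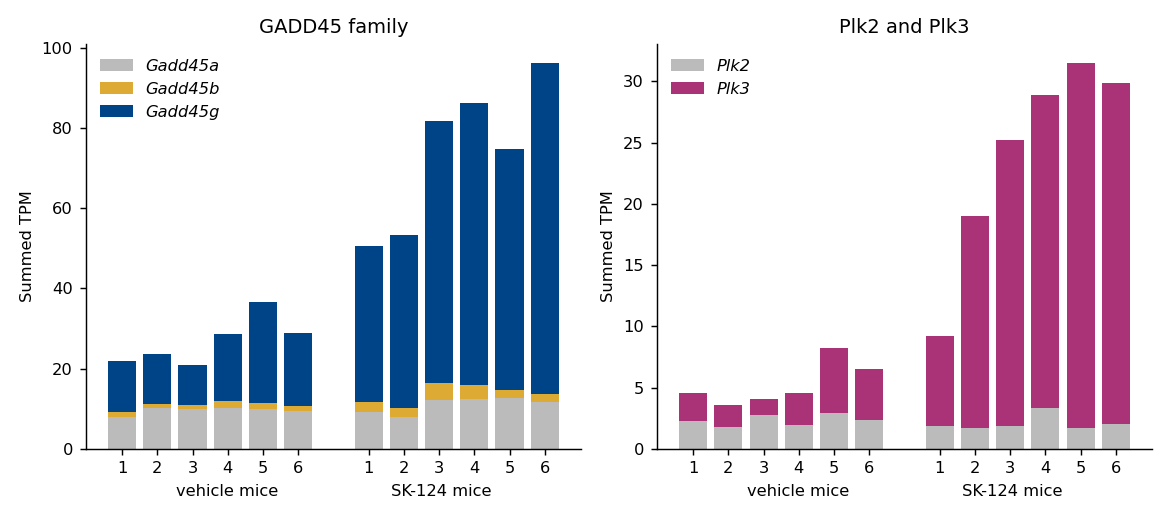
Summed TPM of the 3 GADD45 genes (left) and of *Plk2* and *Plk3* (right) in each vehicle and SK-124 mouse, stacked by gene. *Gadd45g* and *Plk3* account for most of the added height with SK-124, and SK-124 mouse 1 has the lowest sum of its group in both panels.

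The mix of transcripts did not visibly change. RSEM's mean transcript length, which moves when long and short transcripts of a gene change places, was 2374 ± 27.5 bases with vehicle and 2377 ± 14.3 bases with SK-124 for *Plk3*. For *Gadd45g* it was 1067 ± 3.38 and 1065 ± 1.62 bases (SD, n = 6 each). None of the 5 genes differed in this length between the groups (adjusted exact permutation p = 0.829 for each). With few counts, as for *Gadd45b*, a change in the mix of transcripts would be hard to see.

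*Gadd45g* and *Plk3*, which rose most, also varied together among vehicle mice. Across the 6 vehicle mice Pearson's r of log2(CPM + 0.5) was 0.95 (exact permutation p = 0.00694) and Spearman's rho was 0.94 (exact permutation p = 0.0167). Without the 2 mice farthest from the median of *Gadd45g* r was 0.83. Across the 6 SK-124 mice r was 0.75 (exact permutation p = 0.0417) and rho was 0.66 (exact permutation p = 0.175). Without the 2 farthest mice r was 0.47, but too few mice remain to show whether the relation rests on those 2. The vehicle and SK-124 correlations were 2 of 20 computed between members within a group, and none passed adjustment over the 20 (adjusted exact permutation p = 0.139 and 0.417 for these 2).

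**Figure D4:**
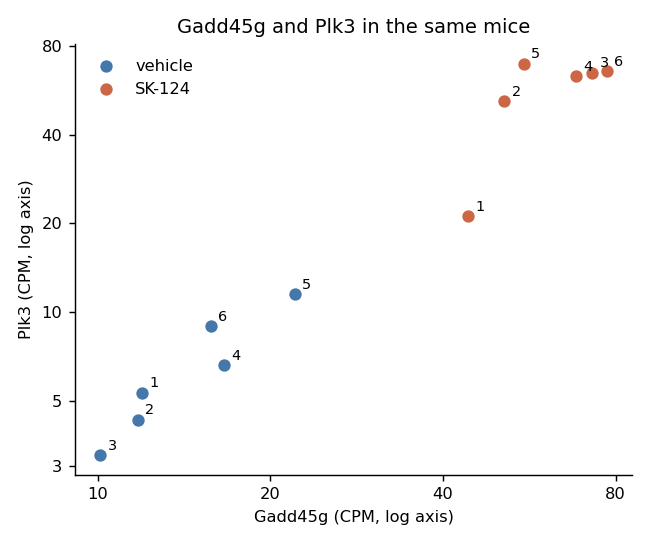
*Plk3* against *Gadd45g* (CPM, both axes log) in the same 12 kidneys, labelled by mouse number, vehicle in blue and SK-124 in orange. Vehicle mice 4, 5 and 6 lie above vehicle mice 1, 2 and 3 for both genes, and SK-124 mouse 1 is lowest of its group for both.

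Other genes that varied most like each member were sought among 13008 genes that averaged 1 CPM or more, by Pearson's r of the deviations from the group means over the 12 mice. *Klf13* (r = 0.93), *Prkar1a* (r = 0.92), which encodes a regulatory subunit of protein kinase A, and the chemokine receptor gene *Cxcr4* (r = 0.86) came closest to *Gadd45g*. All 3 also rose with SK-124, where 10.8% and 13.5% of all genes tested rose and fell. Their log2 fold changes were 0.77 (FDR = 5.56e-06), 0.13 (FDR = 0.0431) and 0.89 (FDR = 0.000348, edgeR for all). *Plk3* was most like *Hbs1l* (r = 0.95), the antiproliferative gene *Tob1* (r = 0.88) and the potassium channel gene *Kcnk5* (r = 0.87). Of these, *Tob1* and *Kcnk5* rose by 0.39 and 0.84 on the log2 scale (FDR = 0.0113 and 0.000425, edgeR), and *Hbs1l* was at 0.10 (FDR = 0.188). *Gadd45b*, which rose, was most like *Gse1*, *Trp53bp1* and *Spns3* (r from 0.87 to 0.91), of which *Gse1* fell by 0.40 (FDR = 0.000779, edgeR), *Spns3* fell by 1.52 (FDR = 5.01e-06) and *Trp53bp1* was at -0.15 (FDR = 0.155). *Plk2* was most like *Bst1*, *Slc10a6* and *Pear1* (r = 0.93 for each), of which *Slc10a6* rose by 4.12 (FDR = 3.7e-09), *Pear1* rose by 0.48 (FDR = 0.000752) and *Bst1* was at 0.12 (FDR = 0.622). *Slc10a6* averaged only 0.172 CPM with vehicle and 3.09 CPM with SK-124, so it reached the limit of 1 CPM only through the SK-124 mice. Its r with *Plk2* was 0.68 in vehicle mice, where it had few reads, and 0.99 in SK-124 mice. *Gadd45a* was most like *Trappc6b*, *Dmrt2* and *Traf7* (r from 0.89 to 0.91), which were at 0.14, 0.15 and -0.13 and did not pass the test (FDR = 0.0663, 0.632 and 0.101, edgeR). The likeness is a description over mice that share each library's depth and scaling, and no p is given for it. These genes were picked as the highest of 13008 over only 12 mice, and such a search returns high r among unrelated genes too. The r values therefore do not show that any of these genes varies with a member.

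The genes on either side were read from the same fit. *Sema4d*, which lies 52931 bases from *Gadd45g* and encodes a semaphorin, fell by 0.55 on the log2 scale (FDR = 2.03e-05, edgeR) and had no overlap between the groups, while *Syk* on the other side was at 0.22 (FDR = 0.421). *Pde4d*, a cyclic AMP phosphodiesterase gene 441585 bases from *Plk2*, rose by a log2 fold change of 0.95 (FDR = 4.67e-06, edgeR), while *Gpbp1* was at 0.12 (FDR = 0.158). *Btbd19*, only 2930 bases from *Plk3*, was at 0.25 (FDR = 0.5). Next to *Gadd45b*, the lamin gene *Lmnb2* fell by 0.26 (FDR = 0.0412) and *Gng7* was at -0.44 (FDR = 0.224). Next to *Gadd45a*, *Gng12* was at 0.12 (FDR = 0.159) and *Gm8566* at 0.51 (FDR = 0.157). Neither neighbour of *Gadd45g* rose with it.

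The polo-like family was completed with *Plk1*, *Plk4* and *Plk5*. None of these 3 passed the test, where 24.4% of all genes tested were called in either direction. *Plk1*, the mitotic kinase, was at 0.901 ± 0.17 CPM with vehicle and 1.17 ± 0.314 CPM with SK-124, and its log2 fold change of 0.38 (SE 0.205) did not pass (FDR = 0.2, edgeR) although the estimate was no smaller than that of *Gadd45a*. *Plk4*, which controls centriole duplication, was at 1.60 ± 0.386 and 1.54 ± 0.29 CPM (FDR = 0.86). *Plk5* was at 0.853 ± 0.154 and 0.737 ± 0.112 CPM (FDR = 0.525, all SD, n = 6 each), although limma on log2(TPM + 0.1) called it lower, at a log2 fold change of -0.61 (FDR = 0.0243). *Plk3* was the only one of the 5 polo-like kinase genes called higher, and its difference in response from *Plk1*, *Plk4* and *Plk5* was not tested.

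Genes whose products work with GADD45 proteins were called in both directions. In the MAP kinase cascade that GADD45 proteins feed, 3 of 12 genes rose, 3 fell and 6 did not pass, where 10.8% and 13.5% of all genes tested rose and fell. The median log2 fold change of the list was 0.05, against -0.01 over all genes tested. *Map3k4*, whose product GADD45 proteins bind, fell by 0.30 (FDR = 0.00713, edgeR), from 29.8 ± 3.55 to 24.1 ± 1.35 CPM (SD, n = 6 each). *Map2k3*, an activator of p38, rose by 0.34 (FDR = 0.00206) and *Mapk14*, which encodes p38-alpha, fell by 0.25 (FDR = 0.00368). *Mapk10*, a JNK gene present at about 1 CPM, rose by 0.75 (FDR = 0.006). The remaining calls, named after their values were seen, were *Map2k6*, which rose by 0.41 (FDR = 0.0192), and *Mapk9*, which fell by 0.18 (FDR = 0.0467). With library totals alone only 1 of the 12 rose and 4 fell, and with limma on either TPM scale none rose and 2 fell, which ended all 3 rises.

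Among 9 tested cell cycle partners and checkpoint genes 3 rose and 2 fell, where 10.8% and 13.5% of all genes tested rose and fell. The median log2 fold change of this list was 0.26. *Cdkn1a*, which encodes the CDK inhibitor p21, a GADD45 partner, rose by 3.43 (SE 0.115, FDR = 1.94e-12, edgeR), from 9.66 ± 1.05 to 104 ± 18.2 CPM (SD, n = 6 each). *Wee1*, whose product restrains CDK1, rose by 0.94 (FDR = 2.21e-05), and *Pcna*, the sliding clamp that GADD45 proteins bind, rose by 0.26 (FDR = 0.00146). *Cdc25b*, a phosphatase that activates CDK1, fell by 0.68 (FDR = 0.000125). *Chek2*, named after its value was seen, fell by 0.50 (FDR = 0.00786). No other tested gene of this list had an estimate as large as that of *Gadd45b*.

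Of 10 genes for DNA demethylation and excision repair 2 rose and 1 fell, a share near the 24.4% called among all genes tested, with a median log2 fold change of -0.08. The dioxygenase genes went apart, since *Tet2* rose by 0.56 (FDR = 0.00369, edgeR) and *Tet1* fell by 1.22 (FDR = 0.00145), from 2.79 ± 0.808 to 1.20 ± 0.479 CPM (SD, n = 6 each). *Ercc5*, a nuclease of nucleotide excision repair, rose by 0.50 (FDR = 0.00016). *Taf12* was at -0.15 (FDR = 0.127). With library totals alone 2 rose and 4 fell, and with limma on either TPM scale none rose and 1 fell, which ended the rises of *Tet2* and *Ercc5*.

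Lists of genes under regulators known to raise members were read in the same way. They are not independent of each other, since *Cdkn1a* is also a cell cycle partner, *Sesn2* stands in the p53 and integrated stress response lists and *Sesn1* in the p53 and FoxO lists. Of 17 tested p53 targets 8 rose and 1 fell, where 10.8% and 13.5% of all genes tested rose and fell. The median log2 fold change of the p53 list was 0.14. *Sesn2* rose by 1.87 (FDR = 5.97e-12, edgeR), *Trp53inp1* by 1.59 (FDR = 2.95e-10) and *Sesn1* by 0.95 (FDR = 3.03e-06), next to *Cdkn1a*. *Phlda3*, named after its value was seen, fell by 0.59 (FDR = 0.0352, edgeR), a call that was lost without any one of vehicle mice 3 and 6 and SK-124 mice 1, 2 and 6 and with SK-124 mice 1 to 3 or 4 to 6 only. The other 8 tested p53 targets did not pass.

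Of 15 CREB and CRTC targets 13 rose and none fell, where 10.8% and 13.5% of all genes tested rose and fell. The median log2 fold change, 1.52, was the highest of the 9 lists. *Nr4a3*, an orphan nuclear receptor gene, rose by 5.20 (FDR = 3.26e-09, edgeR), *Per1*, a clock gene, by 2.42 (FDR = 3.23e-08), *Pck1*, a gene of gluconeogenesis, by 1.84 (FDR = 2.15e-08) and *Crem*, which encodes a CREB relative, by 1.74 (FDR = 5.5e-10). *Gadd45g* and *Plk3*, at 2.06 and 3.07, lay between *Crem* and *Nr4a3*. They also lay below *Cdkn1a* of the p53 list and *Atf3* of the integrated stress response list, and a link to any list was not tested. Of 10 tested integrated stress response genes 8 rose, with a median of 0.89. They included *Atf3* at 4.09 (FDR = 2.47e-05), *Cebpb* at 2.02 (FDR = 7.31e-09) and *Ppp1r15a*, also known as GADD34, at 1.19 (FDR = 9.43e-07), the last of these a DNA damage gene unrelated in sequence to the GADD45 family.

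Of 16 FoxO targets 14 rose, where 10.8% of all genes tested rose, with a median log2 fold change of 0.67. Those with the smallest p were *G6pc* at 1.86 (FDR = 6.75e-10, edgeR), *Txnip* at 1.78 (FDR = 3.38e-10), *Klf15* at 1.46 (FDR = 1.82e-11) and *Gabarapl1* at 0.63 (FDR = 7.42e-08). Of 10 NF-kB feedback genes 7 rose, with a median of 0.77. *Nfkbia*, the inhibitor that NF-kB itself induces, rose by 1.32 (FDR = 3.62e-07), *Birc3* by 0.81 (FDR = 8.39e-06), *Icam1* by 0.70 (FDR = 7.6e-05) and *Nfkb2* by 0.55 (FDR = 7.58e-05). *Gadd45b*, at 1.33, rose about as much as *Nfkbia*, and also about as much as *Klf15* of the FoxO list. The difference between lists was not tested.

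**Figure D5:**
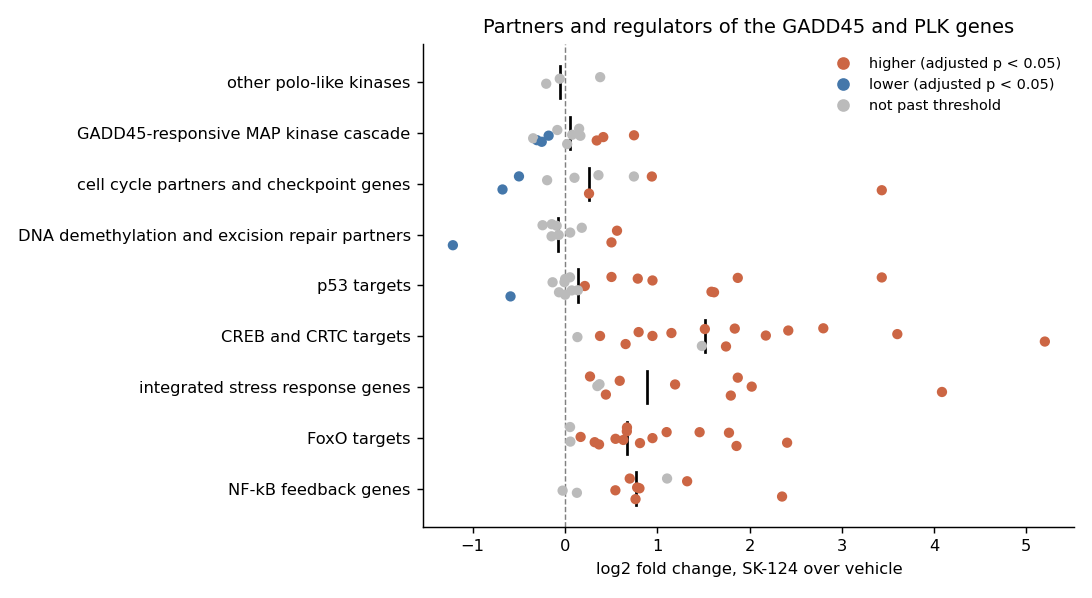
Log2 fold change of SK-124 over vehicle for the tested genes of 9 lists, with 1 point per gene, orange for higher and blue for lower at an adjusted p under 0.05 and grey for the rest, and a black line at the list median. Partners of GADD45 proteins lie around 0 with *Cdkn1a* far to the right, and the CREB and CRTC list has the highest median (1.52).

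Cell type markers were read beside these changes, where 10.8% and 13.5% of all genes tested rose and fell. Of 4 tested tubular injury markers *Spp1*, *Lcn2* and *Vcam1* rose and *Havcr1* did not pass (FDR = 0.272, edgeR), all named after their values were seen. *Spp1* went from 387 ± 19.1 to 495 ± 77.6 CPM, *Lcn2* from 2.55 ± 0.597 to 4.68 ± 1.27 CPM and *Vcam1* from 4.93 ± 0.961 to 7.64 ± 1.85 CPM (SD, n = 6 each). The summed level of the 5 listed, between 377 and 424 CPM with vehicle and between 421 and 629 CPM with SK-124, was almost wholly *Spp1*. Their part in the result was not tested. None of 5 proximal tubule, 3 distal convoluted tubule or 5 red blood cell markers passed the test. Among thick ascending limb, principal cell, intercalated cell and podocyte markers, 3 each, 1 of each list rose, and 1 intercalated cell marker fell. Of endothelial markers 1 of 4 fell, of stromal markers 1 of 4 fell, and of 6 tested immune markers 2 fell. The endothelial one was *Kdr*, by 0.85 (FDR = 0.000647, edgeR), from 28.5 to 15.8 CPM. The stromal one was *Pdgfrb*, by 0.93 (FDR = 5.39e-05, edgeR), from 25.4 to 13.3 CPM. Both were named after their values were seen, and the other 3 of each list did not pass. The immune markers summed to between 98.9 and 149 CPM with vehicle and between 96.8 and 134 CPM with SK-124. Most of this sum was *Cd74*, with means of 108 and 97.4 CPM. The 2 that fell, named after their values were seen, were *Cd79a* by 1.75 (FDR = 0.000627) and *Cd68* by 0.60 (FDR = 0.00213, edgeR for both). Adrenal cortex markers summed to at most 0.617 and 0.877 CPM, with *Cyp11b2* and *Cyp21a1* at 0 in all mice.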

How the data were processed

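Whole-kidney libraries were sequenced on the BGISEQ500 platform. According to the submitters' processing notes the tools were FastQC, STAR 2.7.2b, RSEM 1.3.0 and DESeq2, with build mm10. The strand setting and the annotation are not given in the sources used here. The authors deposited RSEM tables per mouse with expected counts (reads per gene, not normalized), TPM and FPKM (scaled to length and library by RSEM). Reads that map to several genes are divided by RSEM, which can blur near-identical genes.

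Expected counts were rounded, scaled with TMM, filtered with filterByExpr and tested with edgeR 4.0.16 (R 4.3.3). Fold intervals are approximate 95% intervals. They use a normal approximation with an SE worked back from the edgeR test statistic, and so can be somewhat too narrow. Single values were compared by exact permutation tests over mice (scipy 1.17.1). The alternatives used DESeq2 1.42.0 and limma 3.58.1, other scaling, filters, TPM, a replicate block and mice left out. The edgeR, DESeq2 and limma tests were checked on simulated data with few changed genes, balanced in direction, and the same variability for every gene. This check does not cover a shift in makeup between the groups or genes as variable as *Plk3*. Over 30 pairs of mice within a group, chi-square per degree of freedom was 4.41 or more, so none looked like 1 library deposited again. Of the gene identifiers 54349 matched GENCODE M21 with their version. Each library is 1 mouse and no batch is labelled.

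The members, the gene lists and the tests were chosen with earlier results of these data known, and lists that repeat known changes are no independent support. Genes named are the members, up to 4 genes per list with the smallest p, the 3 genes most like each member, the nearest tested gene on each side and the other polo-like kinases. 1 of the genes this rule names is not reported here.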

Additional observations from a re-analysis of the deposited data

Results flagged for a closer look

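Of the 10 groups of 6 values (5 genes, vehicle and SK-124) 1 held a mouse far from the others by Dixon's test. This was *Plk3* in SK-124 mouse 1, the lowest of its group at 21.2 CPM, with a gap to the next mouse that was 0.633 of the range of the group. Chance alone gives about 1 such group in 20. The same mouse had the largest share of counts in its 10 largest genes, 46.8%, and the lowest *Gadd45g* of its group, 44.2 CPM, and their part in the low value was not tested. Without this mouse the log2 fold change of *Plk3* was 3.24 (FDR = 1.94e-08, edgeR).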

How the results depend on the processing

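*Gadd45b*, *Gadd45g* and *Plk3* stayed called and higher under all 24 alternatives, with log2 fold changes from 0.73 to 1.53, from 1.87 to 2.22 and from 2.52 to 3.31. *Gadd45a* stayed higher under all 24 and called under 20, and lost its call with library totals alone (0.23), with limma on log2(TPM + 1) (0.16) and log2(TPM + 0.1) (0.17), and with SK-124 mice 1 to 3 only (0.31). *Plk2* was never called, and its estimate turned below 0 with library totals alone (-0.10), the replicate block (-0.0177), limma on log2(TPM + 1) (-0.13) and log2(TPM + 0.1) (-0.19) and SK-124 mice 1 to 3 only (-0.11), and ranged from -0.165 to 0.0919 with each mouse left out, below 0 without vehicle mouse 2 (-0.0523) or 6 (-0.0128) and without SK-124 mouse 3 (-0.000384) or 4 (-0.165).

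The genes called numbered 1536 higher and 1917 lower, so that 44.5% of calls were higher. Library totals alone gave 777 higher and 3058 lower (20.3% higher), and limma gave 500 higher of log2(TPM + 1) values (19.0%) and 498 of log2(TPM + 0.1) values (19.0%), where the median of all genes was -0.11 and -0.14. SK-124 mice 1 to 3 only gave 2298 calls, 1233 of them lower, and SK-124 mice 4 to 6 only gave 1267 lower. Over the 9 lists together 7 genes fell, against 11 with library totals alone and 3 with SK-124 mice 1 to 3 only, and 55 rose, against 37 and 38 with limma on log2(TPM + 1) and log2(TPM + 0.1). On both of these scales the FoxO targets that rose went from 14 to 9, integrated stress response genes from 8 to 5, and MAP kinase and DNA demethylation genes from 3 and 2 to 0.

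The replicate numbers showed no pairing across all mice, since deviations of same-numbered mice correlated from -0.13 to 0.22 and only 2 of 6 numbers matched best with their own. Those were mice 2 and 3, which matched in both directions (r = 0.18 and 0.22), and a link between them was not tested. With the number as a replicate block 3466 genes were called, against 3453 without it. The smaller response of *Gadd45a* than *Gadd45b*, -0.69, did not pass in a sign-flip test over same-numbered mice (adjusted exact sign-flip p = 0.0694), and the sign-flip p before adjustment cannot go below 0.0312. The larger response of *Gadd45a* than *Plk2* ranged from 0.26 to 0.45 with each mouse left out and passed without vehicle mouse 2 (0.42, adjusted exact permutation p = 0.0281) and without SK-124 mouse 4 (0.45, adjusted exact permutation p = 0.013). On the TPM scale the vehicle correlation of *Gadd45g* and *Plk3* was 0.97 and passed (adjusted exact permutation p = 0.0278), and 3 weak correlations changed sign, to -0.11 for *Gadd45a* with *Plk2* and 0.0517 for *Gadd45a* with *Plk3* in vehicle mice and to 0.0477 for *Gadd45b* with *Plk3* in SK-124 mice. FPKM gave the same order of levels as TPM. The causes were not tested. Depth limits *Gadd45b*, with 19 to 35 counts in vehicle mice.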
